A study of Caenorhabditis elegans with 2 samples.

Results

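ChIP signal of tagged HLH-6 in introns of Caenorhabditis elegans, far from the start sites of coding genes, was examined here, in regions chosen by their strength and position. HLH-6 is a basic helix-loop-helix transcription factor. Regions were selected on the authors' pooled signal value: of the 3000 regions highest in a list of 30000, 321 (10.7%) had a summit inside a protein-coding gene but in no annotated exon, more than 1000 bp from every annotated transcription start site (TSS) of a protein-coding gene and more than 200 bp from each gene for a tRNA, snoRNA or snRNA. They are called distal intronic regions below. The list of 30000 was the input to the authors' reproducibility filter (IDR) and holds background as well as peaks, and 73 of the 321 were in the filtered list, so a region here is not by itself a binding site. The signal value is a deposited score per region, and its scale is not given in the sources used here. Because it chose the regions, its size is a description and not a result.

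The data came from anti-GFP chromatin immunoprecipitation and sequencing (ChIP-seq) of whole hermaphrodites of strain RW10702 at a late embryonic stage, 3.5 hours post synchronization by egg bleaching. The worms carried a transgene for HLH-6 fused at its C-terminus to GFP-FLAG, and chromatin was sheared by sonication. The single group had 2 biological replicates, both with the tagged transgene, so no comparison between groups was possible. A control experiment named in the labels was not analysed here. Whole animals were used, so each value is an average over all cell types, and the tagged protein was not compared with the untagged one.

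Basic helix-loop-helix factors bind as dimers to the E-box, a short palindrome written CANNTG, and HLH-6 is known for driving genes of the pharyngeal glands. Introns far from a promoter can hold enhancers, which act on the host gene or its neighbours, and also whole genes for small RNAs with promoters of their own. Several C. elegans miRNA genes lie within introns in this way.

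The summit sequences of the strongest regions are shown first, because base composition was the feature that set these summits apart from their surroundings. Each runs from 50 bp before to 50 bp after the summit and is read 5′ to 3′ from the RefSeq genome in the build ce11 (WBcel235). The 8 with the highest pooled signal value among those eligible for printing are given, and capitals mark matches on either strand to GAGAGA and to CACACA, and to GATAA or AATTTTT, the motifs whose share at summits passed a test described below. Hosts are the genes whose intron holds the summit.

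unc-104 (chrII:7001556-7001656, + strand): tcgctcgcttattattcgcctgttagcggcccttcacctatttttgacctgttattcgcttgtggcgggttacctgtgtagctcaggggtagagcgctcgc

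srt-52 (chrV:53455-53555, + strand): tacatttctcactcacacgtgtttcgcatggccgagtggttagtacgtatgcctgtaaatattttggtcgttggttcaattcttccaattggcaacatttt

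ldb-1 (chrX:11031239-11031339, + strand): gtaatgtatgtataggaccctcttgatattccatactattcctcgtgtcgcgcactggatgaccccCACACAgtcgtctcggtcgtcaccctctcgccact

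spop-1 (chrIII:10094686-10094786, + strand): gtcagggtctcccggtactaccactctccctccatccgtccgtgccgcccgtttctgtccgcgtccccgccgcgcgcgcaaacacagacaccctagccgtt

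mom-1 (chrX:6296490-6296590, + strand): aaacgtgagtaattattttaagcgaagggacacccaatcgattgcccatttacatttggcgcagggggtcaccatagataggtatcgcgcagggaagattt

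F09A5.3 (chrX:13145262-13145362, + strand): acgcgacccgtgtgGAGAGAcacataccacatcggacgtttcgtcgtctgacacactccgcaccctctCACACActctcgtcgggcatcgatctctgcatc

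lin-42 (chrII:1238053-1238153, + strand): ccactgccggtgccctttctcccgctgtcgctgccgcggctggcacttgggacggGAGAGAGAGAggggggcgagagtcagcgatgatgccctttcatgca

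cnp-2 (chrII:12764630-12764730, + strand): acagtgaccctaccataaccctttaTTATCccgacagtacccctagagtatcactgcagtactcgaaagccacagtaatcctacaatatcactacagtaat

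The next windows complete the pair of strongest regions for GATAA (srx-77, beside cnp-2) and for AATTTTT, the motifs that were less frequent at summits than in the flank. A run of A is the same motif read on the other strand.

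Y45G5AM.9 (chrV:4181926-4182026, + strand): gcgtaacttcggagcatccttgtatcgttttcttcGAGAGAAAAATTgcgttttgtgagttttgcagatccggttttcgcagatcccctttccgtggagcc

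srx-77 (chrV:4667229-4667329, + strand): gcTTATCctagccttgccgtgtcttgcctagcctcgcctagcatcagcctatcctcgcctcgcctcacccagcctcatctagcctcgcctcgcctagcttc

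sdpn-1 (chrX:7994581-7994681, + strand): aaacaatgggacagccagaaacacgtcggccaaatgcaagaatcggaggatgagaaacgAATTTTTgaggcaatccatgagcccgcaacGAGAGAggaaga

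The signal value of the 321 regions ran from 61.4 to 174.8 with a median of 71.6. Just inside the threshold were regions in hsd-1 (61.5), F13E9.11 (61.5) and sri-5 (61.4), and just outside it regions in K08E7.5 (61.3), flp-14 (61.3) and nhr-19 (61.3). The threshold therefore fell in a continuous run of values. The regions had a median width of 460 bp, and 17 overlapped another of the 321, so that 312 separate intervals remained when overlapping ones were counted once.

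The authors' optimal list, made by IDR from the replicate and pooled lists, held 912 regions. All 912 were the highest in the pooled list, so membership was set by the pooled rank. It held 73 of the 321 regions (22.7%), against 30.4% of the 3000, and since both the list and the choice of regions follow the pooled signal value nothing is read from that difference. The lowest of the 73 had a signal value of 85.8.

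Replicate lists give a view of each region that is not pooled, though the pooled list was made from the same alignments. Of the 321 regions, 317 overlapped a region in both replicate lists of 30000. Such overlap was the rule: 2991 of all 3000 pooled regions overlapped a region of replicate 1 and 2994 one of replicate 2. The signal value in replicate 1 ran from 13.1 to 87.7 with a median of 36.4, and that in replicate 2 from 15.6 to 95.4 with a median of 38.9. Among the 3000 strongest regions of both replicates were 124 of the 321 (38.6%), against 44.3% of all 3000 pooled regions, a difference that was not tested. A further 76 were among the 3000 strongest of replicate 1 only and 97 of replicate 2 only, and 24 were in neither. With each replicate taken by itself, 62.31% of the 321 and 67.63% of all 3000 were among the strongest of replicate 1. For replicate 2 the shares were 68.85 and 69.37%.

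The 4 regions missing from a replicate list were in R02F2.1 (not overlapped in replicate 1; 63.3 in replicate 2), F57A8.1 (63.8 in replicate 1), sel-8 (46.7 in replicate 1) and F13E9.11 (51.4 in replicate 1), the last 3 without an overlap in replicate 2. sel-8 encodes a co-activator of Notch signalling.

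**Figure D1:**
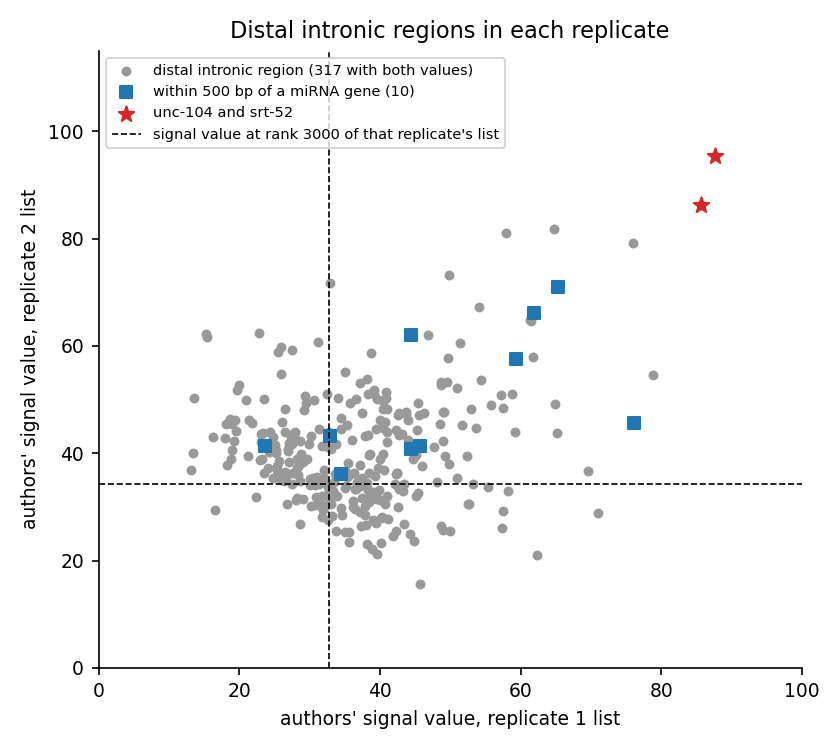
Authors' signal value of each distal intronic region in the list of replicate 1 (x axis) and of replicate 2 (y axis), a score without unit, with 1 point per region and dashed lines at rank 3000 of each list. The regions in unc-104 and srt-52 sit at the top right above 85 in both replicates, and most of the others form a cloud between 20 and 60 that has no clear slope.

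The replicate values of a region followed each other weakly. Spearman's rank correlation between the replicates was 0.051 over the 317 regions and 0.202 over all 3000 pooled regions with values in both lists. These are descriptions across regions that share 2 libraries and were selected on a value made from both. The ratio of replicate 2 to replicate 1 had a median of 1.07 and ran from 0.338 to 4.09. It was above 2 in 28 regions and under 0.5 in 4, together 10.1% of the 317, and 10.6% of the 3000 regions passed the same limits. The extremes were the region in ptb-1, an RNA-binding protein gene, with 15.2 in replicate 1 and 62.2 in replicate 2, and that in gldi-9 and cox-6B, which overlap there, with 62.4 and 21.1.

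The 20 strongest regions were ranked on the pooled signal value, which draws on both replicates, so high values in both follow in part from the choice and are given as a description. All 20 were among the 3000 strongest of both replicates, with signal values from 46.9 to 87.7 in replicate 1 and from 43.8 to 95.4 in replicate 2. Their lowest rank in a replicate was 809 in replicate 1 and 1201 in replicate 2. They lay in 19 genes.

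The strongest lay in intron 5 of unc-104, the kinesin that carries synaptic vesicle precursors along axons, with a pooled signal value of 174.8 and 87.7 and 95.4 in replicates 1 and 2. The second lay in intron 2 of srt-52, a chemoreceptor-family gene, with 170.7, 85.7 and 86.2 in the same order. Next came intron 1 of K10C3.4, whose product RefSeq names as a transmembrane protein, with 148.7, 76.0 and 79.2. In all 3 the replicates differed by little, and no other region reached 140 except that in intron 2 of ldb-1, which encodes a cofactor of LIM-domain proteins, with 142.3, 64.8 and 81.7.

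The regions ranked 5 to 13 lay between 119.9 and 135.1. They were in ppfr-1 (135.1), a regulatory subunit of protein phosphatase 4, in lsy-22 (133.8), in spop-1 (128.1), a homologue of speckle-type POZ protein, and in mom-1 (127.8), the porcupine-type acyltransferase that modifies Wnt ligands. F09A5.3 (127.6), the Period homologue lin-42 (121.0), cnp-2 (120.9), whose product RefSeq names as a calcineurin-interacting protein, Y67D8A.2 (120.8) and the DYRK-family kinase gene mbk-2 (119.9) followed.

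The replicates differed by little in some of these and by more in others. In ppfr-1 they had 65.3 and 71, in spop-1 61.5 and 64.6 and in cnp-2 61.4 and 64.9. The region in lsy-22 had 78.9 in replicate 1 and 54.5 in replicate 2, and that in lin-42, a gene of developmental timing, had 49.8 and 73.2. That in Y67D8A.2 had 76.2 and 45.6.

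The remaining 7 of the 20 had signal values of 110.2 to 119.8 and lay in Y72A10A.1, in F46H5.3, which RefSeq names as a putative arginine kinase, in the chemoreceptor-family gene srh-296, in the ERK-type MAP kinase gene mpk-1, in T18D3.9, in the cadherin gene hmr-1 and again in F09A5.3.

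Both strongest regions carried the letters of a tRNA gene's internal promoter beside the summit. RNA polymerase III transcribes tRNA genes from an A box and a B box inside the gene. A pair was searched as GNNNAGNNG followed on the same strand by GTTCNANNC, with 25 to 60 bp from start to start, within 230 bp of the summit. The motifs were chosen after the data were seen. In the stretches below, the A box and the B box are in capitals.

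unc-104 (chrII:7001631-7001691, + strand): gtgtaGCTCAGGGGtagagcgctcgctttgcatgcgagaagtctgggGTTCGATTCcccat

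srt-52 (chrV:53480-53541, + strand): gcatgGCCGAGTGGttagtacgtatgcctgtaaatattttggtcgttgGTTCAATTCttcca

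In unc-104 the pair fell in an annotated tRNA pseudogene, C52E12.t1, which spans chrII:7001627-7001698 on the + strand, 21 bp from the summit. The rule on distance covered tRNA genes and not pseudogenes. In the summit window of unc-104, 48.7% of the 24-base words occur elsewhere in the genome, while 244 of the 321 windows hold no such word. How this affects its signal value was not tested. In srt-52 no tRNA gene or pseudogene is annotated within 200 bp. Over all 321 regions, 8 had such a pair (2.49%, exact 95% interval 1.08 to 4.85%, for the counting of regions only), against 1.86% of all positions that met the rule's conditions on position, called eligible positions below. The other 6 were in Y46G5A.34 (95.6), usp-33 (79.1), unc-73 (76.1), pdk-1 (69.1), ras-1 (68.0) and btf-1 (66.9). Among the 315 of the 3000 regions that had a short structural RNA gene (tRNA, snoRNA, snRNA) at 200 bp or less, the share was 66.0%. The pair was thus present in the 2 strongest regions but about as frequent over all regions as over eligible positions, a difference that was not tested. The share for the pair was not weighted to the GC content of the regions. The B box alone was in 2.49% of summit windows, 2.83% of windows at eligible positions and 4.66% of those weighted to the GC content of the regions. The region in ras-1 also lay 181 bp from an annotated tRNA pseudogene, C44C11.t2, and had a signal value of 68.0.

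miRNA genes were the small RNA genes found next to several of the strongest regions. This feature was also chosen after the data were seen. A miRNA gene lay within 500 bp of the summit of 10 of the 321 regions (3.12%, exact interval 1.5 to 5.65%), against 0.167% of eligible positions. The latter share was not weighted to the GC content of the regions, which was higher than that of eligible positions, as given below. Such a gene lay that near in 1.71% of the 586 regions that the same rule gives among the 5000 strongest, 6.85% of the 73 in the optimal list and 7.26% of the 124 strong in both replicates. The share was 0.746% among the 268 intronic regions that were 1000 bp or less from a TSS and 1.09% among the 549 distal intergenic ones, without a test of the difference. Of the 20 strongest regions, 4 were among the 10. In all, 81 miRNA genes had an eligible position within 500 bp, and 13 of them (16.1%) had one of the regions there. Several of the 13 lie together in clusters, and the 10 regions lay in 8 host genes. Neither count is therefore one of independent loci.

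The summit lay upstream of the nearest miRNA gene, on its strand, in 8 of the 10 and downstream in 2, while 50.1% of the eligible positions around these genes are upstream. Each region was counted for its nearest miRNA gene only, but a position near several such genes was counted for each, and no test was made. The strongest of the 10 was in ppfr-1, 235 bp upstream of mir-2, with a signal value of 135.1 in the pooled list, 65.3 in replicate 1 and 71 in replicate 2. In intron 1 of F09A5.3, a cluster of the mir-51 family genes mir-54, mir-55 and mir-56 is transcribed against the host. A further miRNA gene, mir-55b, overlaps mir-55 and is annotated on the host strand. A region lay at either end of the cluster. One was 218 bp upstream of mir-54, with 127.6, 61.9 and 66.2, and the other 237 bp downstream of mir-56, with 110.2, 59.4 and 57.5. The summit in Y67D8A.2, which RefSeq names as a phosphorylase kinase regulatory subunit, was 180 bp upstream of mir-58a and had 120.8, 76.2 and 45.6.

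K01F9.2 had 2 overlapping regions upstream of mir-90, at 156 bp (88.1) and 371 bp (81.2), and both overlapped a single region of replicate 1 with 44.4. In F59G1.4 a summit lay 494 bp upstream of lin-4, the miRNA that represses lin-14 to time larval development, and had 83.8 in the pooled list, 45.8 in replicate 1 and 41.3 in replicate 2. Weaker regions were 158 bp upstream of mir-4930 in Y38F2AR.10 (71.6), 272 bp upstream of mir-35 in Y62F5A.9 (63.4) and 456 bp downstream of mir-8190 in hmr-1 (64.8). mir-35 is the first gene of a cluster needed in embryos. The region near it had 23.6 in replicate 1 and 41.4 in replicate 2, so that in replicate 1 it fell below the 32.8 found at rank 3000.

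The summit windows upstream of mir-58a (in Y67D8A.2), mir-90 (in K01F9.2) and lin-4 (in F59G1.4) are shown with the same capitals. They were chosen after the values were seen.

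Y67D8A.2 (chrIV:3233024-3233124, + strand): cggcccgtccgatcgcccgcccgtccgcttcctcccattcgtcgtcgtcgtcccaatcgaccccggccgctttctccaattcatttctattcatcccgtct

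K01F9.2 (chrIII:8874190-8874290, + strand): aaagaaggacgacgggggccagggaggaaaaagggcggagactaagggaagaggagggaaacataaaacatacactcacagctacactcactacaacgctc

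F59G1.4 (chrII:5901710-5901810, + strand): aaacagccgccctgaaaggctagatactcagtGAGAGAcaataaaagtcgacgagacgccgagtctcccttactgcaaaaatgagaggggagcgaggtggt

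**Figure D2:**
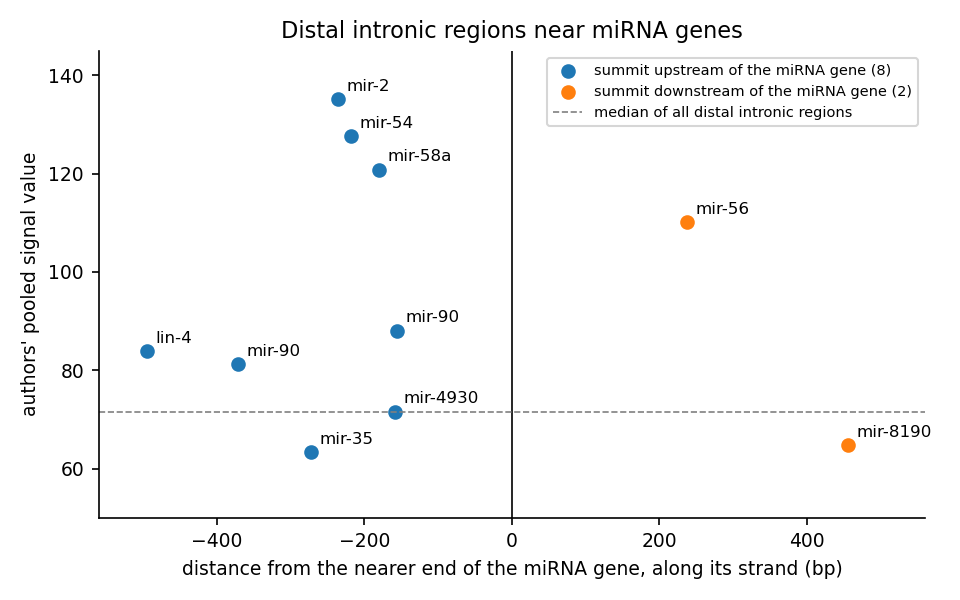
Authors' pooled signal value (y axis, score without unit) of the 10 distal intronic regions within 500 bp of a miRNA gene, against the distance in bp of the summit from the nearer end of that gene along its strand (x axis, negative upstream), with a dashed line at the median of all 321 regions. The 8 upstream summits lie 156 to 494 bp before the gene, and 7 of the 10 points are above the line.

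Other annotated non-coding RNA genes were also frequent next to the summits. A gene of the class ncRNA, which holds mostly unnamed transcripts, lay within 200 bp of 35 summits (10.9%, exact interval 7.71 to 14.8%), against 2.36% of eligible positions. This share was 29.1% among distal intergenic regions and 7.84% among intronic regions near a TSS. The share of eligible positions was not weighted to the GC content of the regions here either, and no difference was tested.

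GC content rose sharply at the summits. The window at the summit, 50 bp to each side, had a median GC content of 49.5%, and the window centred 500 bp toward lower coordinates 36.6%. The median difference was 13.9 percentage points. GC was higher at the summit in 287 regions, lower in 28 and equal in 6, with a two-sided exact sign test over the 321 regions at p = 2.83e-55. Regions, not samples, are the units of this test, so the p describes these regions only. This test and the motif tests below treat regions as independent, although 17 overlapped another and 64 shared an intron with another. GC exceeded that of both flanks in 264 regions (82.2%), and it did so in 85.4% of the other 2679 regions of the 3000, a difference that was not tested.

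The windows shown above give the range. That of spop-1 had 67.3% GC with 29.7 and 30.7% in its lower and upper flank, and that of lin-42 had 66.3% with 37.6 and 28.7%. The window of cnp-2 had 42.6% and a lower flank of 45.5%, one of the few regions without a rise on that side. The lowest summit GC was 30.7% in glna-1, a glutaminase gene, and the highest 74.3% in F31E9.3.

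Eligible windows had a median GC content of 32.7%. A GC content of 40% or more was found in 92.5% of the regions and in 19.4% of eligible positions, and one of 50% or more in 49.8% and 2.99%. No region lay among the 7636 kb of eligible positions under 30% GC. The density of regions was 1.81 per Mb between 30 and 35% GC, 26.4 between 40 and 45%, 212.3 between 50 and 55% and 1102 at 65% or more, where 14 regions lay in 12.7 kb. GC content was not used to choose the regions, but how it affects the sequencing and shearing of chromatin was not tested, and the control that could show this was not analysed here.

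**Figure D3:**
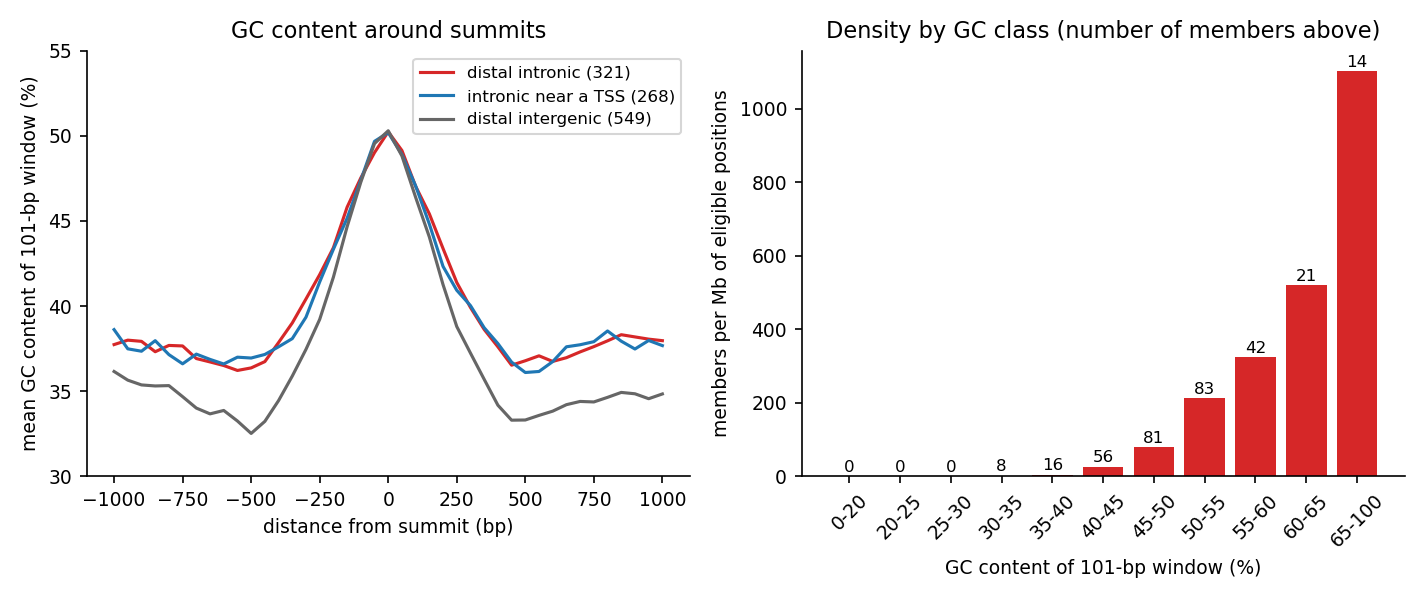
Left, mean GC content in percent of windows of 50 bp to each side (y axis) by distance in bp from the summit (x axis) for distal intronic, TSS-near intronic and distal intergenic regions; right, distal intronic regions per Mb of eligible positions (y axis) by GC class in percent (x axis), with the number of regions above each bar. The 3 curves reach about 50% at the summit, and the density climbs in every class from 30% GC upward.

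The E-box was not more frequent at the summits than beside them. A match to CANNTG was present in 103 summit windows (32.1%, exact interval 27 to 37.5%) and in 98 flank windows, with an adjusted p of 0.932 in the two-sided exact McNemar test with Benjamini-Hochberg adjustment over the 9 motifs searched. It was found in 33.7% of all 3000 regions, in 25.6% of eligible positions, and in 29.8% when these were weighted to the GC classes of the regions. Of the 20 strongest regions, 9 had a match. The special forms CACGTG and CAGCTG were in 6 and 8 summit windows against 5 and 5 flank windows (adjusted p = 1 and 0.872, exact McNemar). CACGTG and CAGCTG are forms of CANNTG, so these matches are among the 103. A p that misses the threshold does not show that the shares are equal, and CANNTG is loosely defined.

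Simple dinucleotide repeats were more frequent at summits. GAGAGA, the core of GA-repeat elements, was in 54 summit windows (16.8%) and 21 flank windows (adjusted p = 0.000263, exact McNemar). CACACA was in 56 (17.5%) and 15 (adjusted p = 2.01e-06, exact McNemar). Among 337 regions drawn by the same rule from replicate 1 alone, GAGAGA was in 49 summit and 34 flank windows and did not pass (adjusted p = 0.181, exact McNemar). One or both were present in 99 regions (30.8%), and both in 11. GAGAGA was found in 4.13% of eligible positions and 8.82% of those weighted to the regions' GC, and CACACA in 3.96 and 7.58%, so both shares at summits remained about 2-fold or more above positions of like GC. This comparison with eligible positions was not tested.

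The share of GAGAGA was 29.0% in distal intergenic regions and 18.3% in intronic regions near a TSS, and that of CACACA 15.7 and 14.2%. Over all 3000 regions GAGAGA was in 18.3% and CACACA in 12.9%, so GAGAGA was about as frequent there as in the 321. Among the strongest, middle and weakest 107 regions, GAGAGA was in 22, 23 and 9 and CACACA in 20, 21 and 15. In the windows printed above, lin-42 has the longest run of GA repeats and F09A5.3, upstream of mir-54, has both motifs. Read relative to the host gene, GAGAGA was on the opposite strand only in 36 windows, on the host strand only in 14 and on both in 4. Of GAGAGA matches at eligible positions, 57.2% were on the opposite strand. That share counts matches and not windows, so it is not a like measure, and no test was made. CACACA was on the opposite strand only in 24 windows and on the host strand only in 28.

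Motifs rich in A and T were less frequent at summits. AATTTTT was in 19 summit windows and 70 flank windows (adjusted p = 4.68e-08, exact McNemar) and in 36% of eligible positions. GATAA, the core site of GATA factors, was in 35 and 63 (adjusted p = 0.00523, exact McNemar). In the 244 regions whose window holds no 24-base word found elsewhere in the genome, GATAA was in 29 and 47 and did not pass (adjusted p = 0.0615, exact McNemar). Weighted to the regions' GC, eligible positions had AATTTTT in 8.92% and GATAA in 11.1%, beside 5.92 and 10.9% of summit windows. Over all 3000 regions the shares were 4.43 and 11.3%. TAATTA, a homeodomain core, was in 8 and 16 (adjusted p = 0.208, exact McNemar), and TGTTTAC, a forkhead site, in 5 and 5 (adjusted p = 1). They were found in 5.35 and 1.04% of eligible positions. Weighted to the regions' GC, the shares were 1.565 and 0.802%, beside 2.49 and 1.56% of summit windows. CACGTG was in 1.32% and CAGCTG in 1.37% of eligible positions. Weighted to the regions' GC, these 2 shares were 2.50 and 2.75%, beside 1.87 and 2.49% of summit windows. No test was made of these comparisons with eligible positions.

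A count of all 2080 six-letter words, pooled over both strands and both flanks and given without a test, was led by related words. CCTCTC had the largest difference, present in 17.8% of summit windows and 3.89% of flank windows, followed by AGAGAG with 18.1 and 4.52% and CACACA with 17.5 and 4.83%. At the other end, AAAAAT was in 12.5% of summit windows and 44.9% of flank windows.

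**Figure D4:**
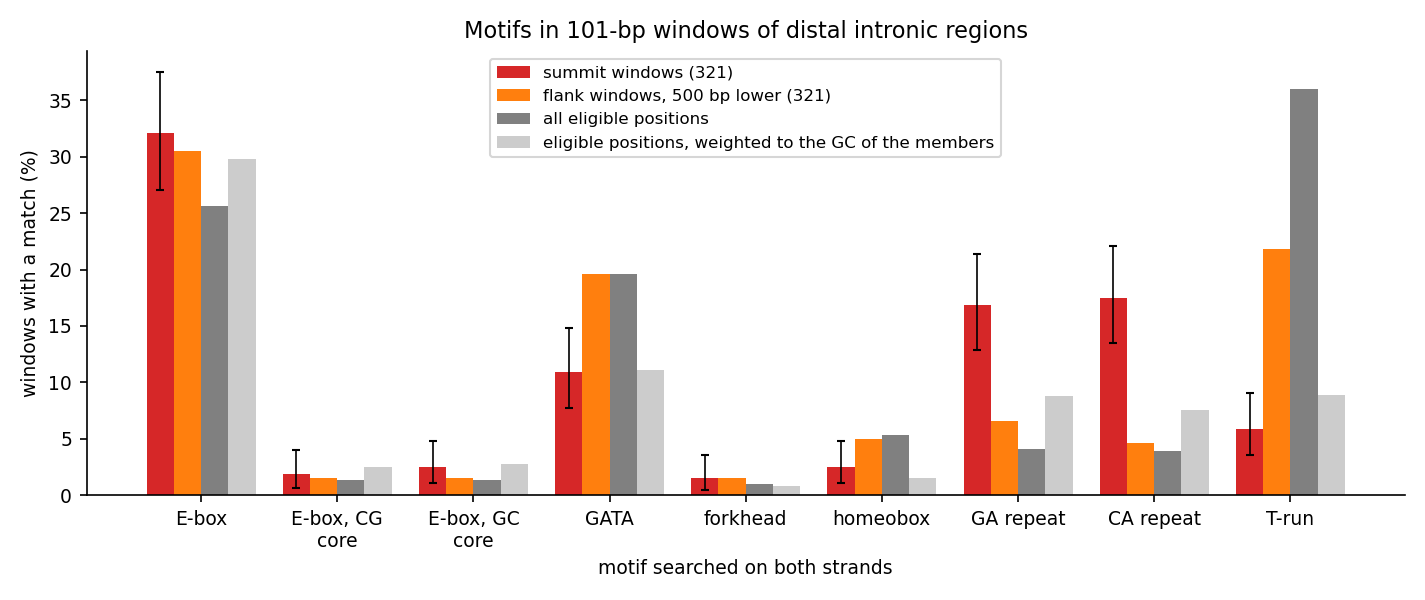
Percent of windows of 50 bp to each side with a match on either strand (y axis) for the 9 motifs (x axis, by family) at summits, with exact 95% intervals as error bars, in flanks, over eligible positions and over eligible positions weighted to the GC of the regions. The bars for the E-box are near 30% in summit, flank and GC-weighted windows, while GA and CA repeats stand at 16.8 and 17.5% at summits and below 9% elsewhere.

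Long introns held a larger share of the regions than of eligible positions. An intron longer than 5000 bp held 31.5% of the 321 (exact interval 26.4 to 36.9%), against 14.4% of eligible positions and 19.9% of those weighted to GC. Introns of up to 500 bp held 32 (9.97%, exact interval 6.92 to 13.8%), against 24.7 and 18.0%. The median length was 3024 bp. The first intron of the gene held 71 (22.1%, exact interval 17.7 to 27.1%), against 11.9% of eligible positions and 13.9% weighted to GC. These differences were not tested. Annotated introns are those between the merged exons of all transcripts of a gene.

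Summits lay a median of 2322 bp from the nearest TSS, the farthest 14025 bp away in ppfr-1, and a median of 874 bp from the nearest exon of the host. Although no summit was in an exon, 120 of the 321 regions touched one with some part of their width. Few summits lay in repeats. Windows with over 50% of their bases soft-masked as repeats or low complexity made up 8.72%. The share was 49.7% of eligible positions and 25.7% of those weighted to GC. Windows in which over 50% of the 24-base words occur elsewhere in the genome made up 2.49%, against 12.4 and 23.0%. They were also few in distal intergenic regions (2.73%), intronic regions near a TSS (3.73%) and all 3000 (4.63%). How repeats affect the mapping of reads was not tested.

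Density was 16.7 regions per Mb over 19.2 Mb of eligible positions (19.1% of the nuclear genome), while the 3000 lay at 29.9 per Mb of the whole genome. Chromosome X held 56 (17.5%, exact interval 13.5 to 22.1%) beside 16.7% of eligible positions. The share was 12.2% on chromosome IV and 11.2% on V, where 16.7 and 15.7% of eligible positions lie, and between 16.8 and 21.2% on the others.

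**Figure D5:**
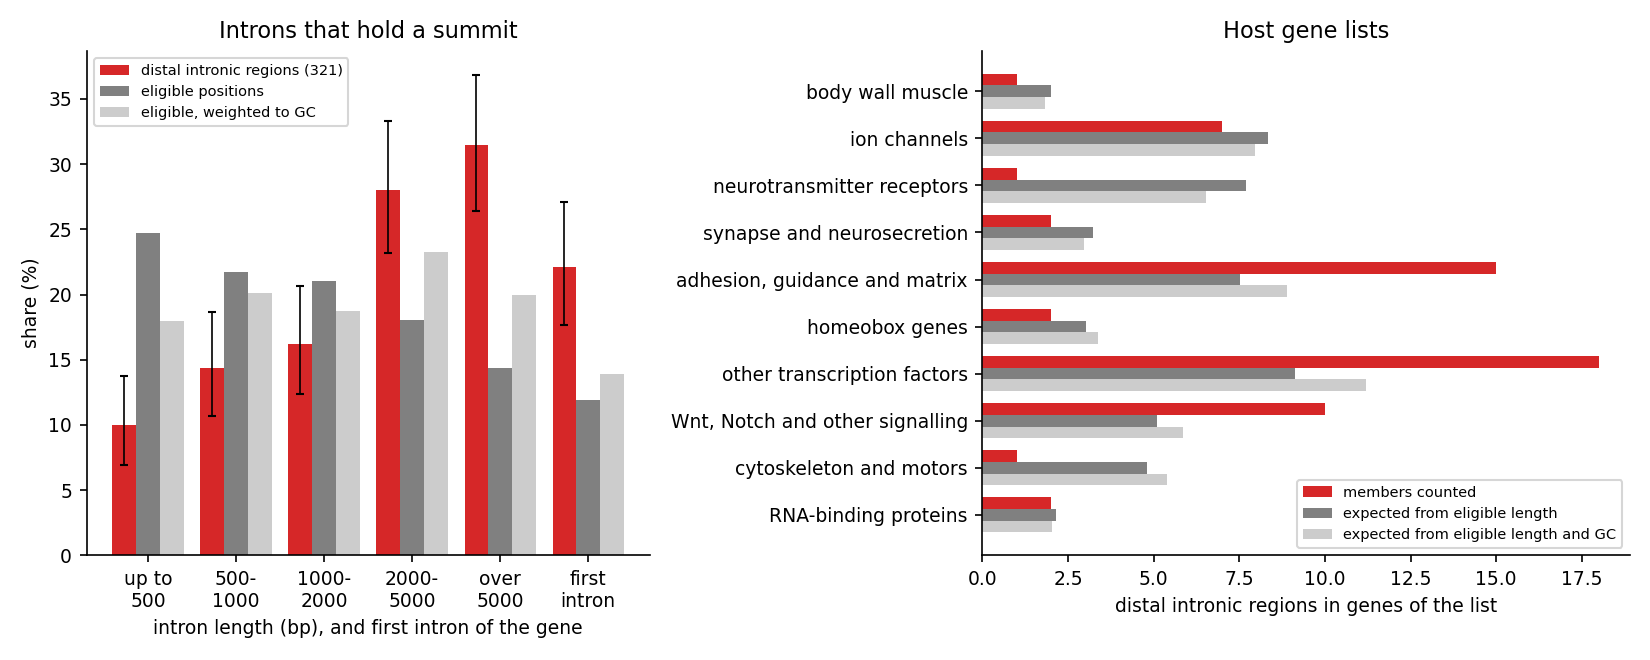
Left, share in percent (y axis) of distal intronic regions, of eligible positions and of eligible positions weighted to GC by intron length class in bp and for first introns (x axis), with exact 95% intervals for the regions; right, number of regions (x axis) in genes of each host list (y axis) beside the numbers that the overall density gives from eligible length and from length and GC. The share of regions climbs from 9.97% in the shortest introns to 31.5% in the longest, and the lists on adhesion, other developmental transcription factors and signalling have longer red bars than grey ones.

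Host genes numbered 268, which is 2.12% of the 12616 coding genes with an eligible position. Of these hosts, 226 had 1 region, 29 had 2 and 13 had 3 or more, and 6 regions lay in introns of overlapping genes. Long genes were more often hosts: of genes with up to 1 kb of eligible positions 0.363% had a region, and of those with more than 10 kb 24.1%. Density per Mb was 10.4 in the former and 24.1 in the latter. In all, 64 regions shared an intron with another one.

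The cadherin gene hmr-1, needed for cell adhesion in the embryo and in axon patterning, had the most. Its 5 regions all lay in intron 21, which is 18116 bp long, with signal values of 62.3 to 110.3 and summits spread over 15794 bp. The strongest had 65.1 in replicate 1 and 43.8 in replicate 2, and the weakest 45.7 and 15.6, so that the replicates ranked it very differently. Intron 1 of lsy-22 (11385 bp) had 4 regions with signal values of 73.8 to 133.8, of which 3 were in the optimal list. In replicate 2 these 4 had values of 54.5, 32.6, 36.7 and 43.1, and in replicate 1 values of 78.9, 45.4, 69.6 and 16.2, taken in the order of their position.

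daf-5, a Ski homologue of the TGF-beta pathway that controls dauer entry, had 4 regions in its intron 1 of 14446 bp, with signal values from 71.6 to 85.2. None was in the optimal list, and 2 were among the 3000 strongest of both replicates. GAGAGA was present in the windows of 3 of the 4.

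The hosts with 3 regions were ldb-1, ppfr-1, Y67D8A.2, mbk-2, K01F9.2, Y111B2A.12, Y48C3A.5, unc-73, vab-1 and herc-1. In ldb-1 they lay in intron 2 and had signal values of 142.3, 100.9 and 64.2. mbk-2 had 119.9, 106.7 and 84.1 in introns 8 and 4, all 3 among the 3000 strongest of both replicates. By contrast none of the 3 regions of the Eph receptor gene vab-1 (65.6 to 73.3) was strong in both, and unc-73, a gene of axon guidance, had 1 that was. The 3 summits of herc-1, a HECT-type ubiquitin ligase gene, were within 571 bp of each other in 1 intron, with 67.2, 71.7 and 68.1.

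Host genes were also counted in 10 lists, which had been compiled with earlier results of these data known and do not hold every gene of the kind they name. For each, the number of regions is given beside the number that the overall density gives over the eligible length of its genes, and beside the same weighted to GC. Cell adhesion, axon guidance and matrix genes had 15 regions in 9 of 93 genes (9.68%), against 7.53 from length and 8.90 from length and GC. Besides hmr-1 and vab-1 they included the L1-type adhesion gene sax-7 (86.8 pooled, 37.9 in replicate 1 and 43.2 in replicate 2) and the contactin rig-6 (71.9).

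The list of developmental transcription factors other than homeobox genes had 18 regions in 15 of 331 genes (4.53%), against 9.12 and 11.2. The strongest on the list were lin-14 (90.7), the timing factor repressed by lin-4, and lir-1 (90.4), followed by the nuclear receptor gene daf-12 (84.5) and the GATA factor gene egl-18 (73.5). The region in lin-14 had 57.6 in replicate 1 and 29.2 in replicate 2, while that in daf-12, in its first intron, had 39.2 and 51.8. Factor genes outside the list also had regions, such as let-607 (97.2), a CREB-H homologue, and the sex-determination gene tra-1 (72.6). On the homeobox list, 2 of 89 genes had a region, the Distal-less homologue ceh-43 (71.6) and the posterior Hox gene nob-1 (70.1), beside 3.04 and 3.36 regions from length and from GC. A further host, cone-1 (64.5), whose product RefSeq names as a cut-like homeobox protein, is not on the list.

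The list of Wnt, Notch, TGF-beta and growth factor signalling genes had 10 regions in 7 of 93 genes (7.53%), against 5.10 and 5.85. Its strongest were mpk-1 (111.1), lag-1 (85.5), the DNA-binding effector of Notch, lit-1 (83.3), the Nemo-like kinase of Wnt signalling, and unc-73 (76.1). The list is not complete for these pathways: mom-1, daf-5 with its 4 regions and sel-8 with 2 (up to 99.2) are not on it. The lists on adhesion, other developmental transcription factors and signalling had 32.8 to 33.3 regions per Mb of eligible positions, about 2-fold the 16.7 over all genes by length alone. For all 3 lists the number from length and GC, given above, was higher than that from length, so the excess over it was smaller. Density also varied with gene size, and was 24.1 per Mb in genes with more than 10 kb of eligible positions. No test was made, and 3 of the 15 adhesion regions came from vab-1 and 5 from hmr-1. Of the 10 signalling regions, 3 came from unc-73 and 2 from lit-1. On the list of other developmental transcription factors, lin-14, lir-1 and egl-18 had 2 each.

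Lists of neuronal effector genes did not stand out in that direction. Ion channels had 7 regions in 7 of 159 genes, against 8.34 and 7.95, with twk-13 (86.3), kqt-1 (72.3), trp-4 (71.1) and kvs-5 (69.8) as the strongest. Neurotransmitter receptors had 1 region, in lgc-37 (64.2), among 175 genes, against 7.71 and 6.51. Synapse and neurosecretion genes had 2, in unc-104 (174.8) and the synaptotagmin gene snt-7 (67.1), against 3.24 and 2.97. The cytoskeleton list had 1 region, in ajm-1 (73.2), which encodes a protein of apical junctions, among 91 genes against 4.81 and 5.40. Body wall muscle genes had 1, in the zyxin gene zyx-1 (75), against 2.00 and 1.82. RNA-binding proteins had 2, in the splicing factor gene sfa-1 (77.7) and in ptb-1 (74.8), against 2.16 and 2.04.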

How the data were processed

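The authors deposited narrowPeak lists in the build ce11, per the accompanying README texts. A pooled list drew on both replicates' alignments with a control, each replicate list on 1 replicate, and the optimal list was made by IDR. Sources used here do not give the aligner, peak caller or IDR threshold. Each region has the authors' signal value, a deposited score of unknown scale, and a deposited −log10 q-value, at least 1.66 among the 3000 strongest. No list gives reads, so depth is unknown, and exact (Clopper-Pearson) 95% intervals cover the counting of regions only.

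Summits were placed on Ensembl release 115 annotation and the RefSeq genome of WBcel235 (Python 3, numpy, pandas, scipy), with coordinates counted from 1. A replicate's value is that of its region with the nearest summit among those overlapping by at least 1 bp, and 6 of the 321 regions share such a region with another in each replicate. Motifs in 101-bp windows were compared with the exact McNemar test and GC with the exact sign test, both tested on simulated data. GC weighting gives each eligible position the density of regions in its GC class. Product names are those of RefSeq.

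Genes named are the hosts of the 20 strongest regions, all hosts of 3 or more, up to 4 hosts per list with the strongest region, and the 3 regions on either side of the threshold. Others, such as those by miRNA genes or at the ends of a range, were chosen after their values were seen. Members and lists were chosen with earlier results of these data known. Coordinates of regions on chromosome I were used, but the sequences shown (the 8 strongest regions, the 2 strongest for each motif that passed and 3 next to miRNA genes) come from the other chromosomes.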

Additional observations from a re-analysis of the deposited data

How the results depend on the processing

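Under the alternatives listed here, the 321 regions numbered 312 to 433 except in 3 cases: 190 among the 2000 strongest pooled regions, 586 among the 5000 strongest, and 182 when the summit had to lie over 2000 bp from a TSS. The share in the optimal list was then 38.4% of the 190 and 12.5% of the 586, since the list holds only the 912 strongest regions, and the share strong in both replicates 58.4% and 21.3%. Regions in the optimal list lay in a first intron in 27.4%. A miRNA gene lay within 500 bp of 1.71% of the regions among the 5000 strongest, 6.85% of those in the optimal list and 7.26% of those strong in both replicates, and within 200 bp of 0.935% of the 321. An ncRNA gene lay within 200 bp of 19.2% of the regions in the optimal list, and of 18.9% when only exons of coding genes barred a summit. Shares on X kept within the exact interval of the main value throughout.

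The differences in motif share (summit minus flank, in percentage points, exact McNemar) for TAATTA passed among the 2000 strongest (-3.68, adjusted p = 0.0281), the 5000 strongest (-2.73, adjusted p = 0.0204) and the regions strong in both replicates (-6.45, adjusted p = 0.0141). In the main setting TAATTA was in 2.49% of summit windows and 1.565% of eligible positions weighted to GC, a comparison that was not tested. GATAA did not pass without repeated 24-base words (-7.38) or within the optimal list (-13.7, 73 regions, adjusted p = 0.0695 in the exact McNemar test). Regions drawn from 1 replicate alone gave differences of -2.37 to 1.24 for TGTTTAC and of 4.45 to 10.5 for GAGAGA, the lower value of each without replicate 2, where TGTTTAC passed (adjusted p = 0.0483, exact McNemar) and GAGAGA did not. The causes were not tested. The GC difference lay between 9.90 and 16.8 points in all 13 alternatives, and CACACA and AATTTTT passed in all 13. No region had the same interval as another, so counting repeated intervals once changed no value. The GC and motif tests were not repeated with overlapping regions counted once. The settings restricted to regions in the optimal list or strong in both replicates, and those for miRNA and ncRNA genes, were chosen after seeing the data. Without read counts, no limit of depth could be given.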
